A study of Mus musculus with 16 samples.

Results

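The regions described here are the N6-methyladenosine (m6A) peaks that were listed in Ythdf2-KO cells and had no counterpart in WT cells, called KO-only peaks below. A peak of the Ythdf2-KO list was a member when none of its exonic blocks shared a base, on the same strand, with any exonic block of the WT list. By this rule 1860 of 17428 peaks in the Ythdf2-KO list were members (10.7%, 95% exact binomial interval 10.2 to 11.1), and they lay in 1610 genes. They were selected on the deposited peak lists themselves, so their number and their absence from the WT list are a description and were not tested. Of the 1860 peaks, 1439 lay in 1230 genes that had another peak in the WT list, and 421 lay in 380 genes with no WT peak at all.

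The study compared MC38 cells, a mouse colon adenocarcinoma line, of 2 genotypes, labelled WT and Ythdf2-KO, and located m6A and RNA bound by YTHDF2 in 16 libraries. There were 3 m6A immunoprecipitation libraries and 3 input libraries for each genotype, and 2 YTHDF2 RNA immunoprecipitation (RIP) libraries with 2 inputs, all 4 from cells labelled WT. Titles carry the tags gNC for WT and gY2 for Ythdf2-KO, which look like names of guides, and the WT cells may thus have carried a control guide. No drug treatment, time course or host animal enters these groups, and the sources used here do not say whether the KO cells were 1 clone or a pool.

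m6A is placed on nascent mRNA by a methyltransferase complex and is known to gather around stop codons, in long internal exons and in 3′ UTRs. YTHDF2 is a cytoplasmic reader that binds m6A and recruits deadenylases, so that bound transcripts are degraded. The mark lies mostly within a consensus of 5 bases called DRACH, which reads A, G or T, then A or G, then the methylated A, then C, then A, C or T.

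The following sequences show what KO-only peaks of the lowest deposited score in protein-coding genes look like at base level. Gene models without a given name, such as Gm with digits or names ending in Rik, were left out. Peaks whose centre lay off the main coding transcript were passed over. They come from the GENCODE M21 transcripts and are written 5′ to 3′ on the transcript strand, with every DRACH match in capitals and with mm10 coordinates. In genes that had another WT peak, the first set holds Hmgb1 (chr5:149050295-149050440, minus strand, coding bases of exon 3 of 5), which encodes a DNA-bending chromatin protein. It also holds Zfpm1 (chr8:122335605-122335754, plus strand, coding, exon 10 of 10), which encodes a GATA cofactor, and Ddit3 (chr10:127290855-127290884, plus strand, 5′ UTR), which encodes the stress-induced transcription factor CHOP.
Hmgb1: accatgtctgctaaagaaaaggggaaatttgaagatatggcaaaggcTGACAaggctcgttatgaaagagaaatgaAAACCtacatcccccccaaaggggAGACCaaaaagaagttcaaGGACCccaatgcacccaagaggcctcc
Zfpm1: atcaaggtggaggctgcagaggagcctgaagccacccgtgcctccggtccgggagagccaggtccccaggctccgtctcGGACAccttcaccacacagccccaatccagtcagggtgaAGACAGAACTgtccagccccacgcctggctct
Ddit3: acagagccagaaTAACAgccgGAACCtgag

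The second set comes from genes with no WT peak. Atp5o (chr16:91925214-91925235, minus strand, 3′ UTR) encodes a subunit of mitochondrial ATP synthase. Mfap1b (chr2:121469836-121469955, minus strand, coding, exon 2 of 7) encodes a spliceosome-associated protein and has a near-identical paralog, so reads may have been split between the copies. Nr1h4 (chr10:89498080-89498228, minus strand, coding, exon 2 of 9) encodes the bile acid receptor FXR. The windows of Atp5o, Mfap1b and Nr1h4 held 1, 0 and 4 DRACH matches.
Atp5o: aaaatgcttcctGAACAgaggg
Mfap1b: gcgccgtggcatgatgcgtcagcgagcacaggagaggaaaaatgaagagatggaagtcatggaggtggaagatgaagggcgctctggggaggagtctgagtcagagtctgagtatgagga
Nr1h4: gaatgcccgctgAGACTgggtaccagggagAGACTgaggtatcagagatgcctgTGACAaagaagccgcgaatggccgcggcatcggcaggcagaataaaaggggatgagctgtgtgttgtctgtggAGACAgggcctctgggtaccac

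The third set lay under YTHDF2 RIP peaks. Rhou (chr8:123662852-123662881, plus strand, 3′ UTR) encodes an atypical small GTPase, and Raph1 (chr1:60525724-60525873, minus strand, coding, exon 4 of 14) encodes lamellipodin, an actin regulator at the leading edge.
Rhou: tgctggtaaatgGGACTgaAGACTttctta
Raph1: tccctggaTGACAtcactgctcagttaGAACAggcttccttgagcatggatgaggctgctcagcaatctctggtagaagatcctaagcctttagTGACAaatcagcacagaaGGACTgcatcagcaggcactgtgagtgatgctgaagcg

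KO-only peaks were narrow and had weak scores beside the 15568 peaks of the Ythdf2-KO list that shared a base with the WT list. The deposited score of a peak is read here as a p-value, from the values alone, and a lower score means a stronger peak. The median width was 120 exonic bases for KO-only peaks (quartiles 61 and 151) and 270 for shared peaks (quartiles 180 and 420). The widest KO-only peak spanned 421 bases and the widest shared peak 7456 bases. The median score was 1.75e-08 for KO-only peaks against 1.3e-30 for shared peaks, and 26.5% of KO-only peaks (493 of 1860) against 88.5% of shared peaks reached a score of 1e-10 or lower. Width and score come from the calls that chose the members, so these differences carry no test. The 3784 peaks found in the WT list alone were similar in both values, with a median width of 121 bases and a median score of 1e-08. Both lists therefore had narrow, weak peaks that the other list lacked.

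**Figure D1:**
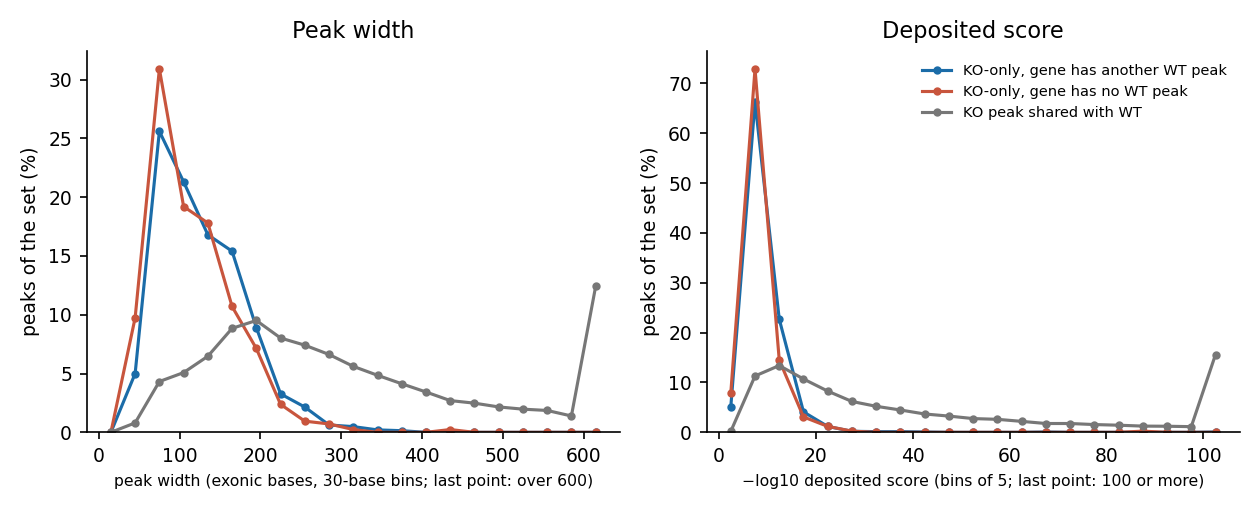
Left, width of m6A peaks in exonic bases against the percentage of peaks of each set, in bins of 30 bases; right, −log10 of the deposited score in bins of 5. Points are KO-only peaks in genes with another WT peak, KO-only peaks in genes with no WT peak and shared peaks. Both KO-only sets are concentrated at narrow widths (medians 120 and 91 bases) and weak scores, while shared peaks reach far to the right.

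Most genes had a single KO-only peak (1397 of 1610), 185 had 2, 21 had 3 and 7 had 4 or more. Macf1, which encodes a giant linker of actin and microtubules, had 6 KO-only peaks beside 22 peaks in the WT list, and 5 of the 6 lay in its coding exon 36 of 98, which is 5331 bases long. Prokr1, which encodes a prokineticin receptor, had 4 KO-only peaks and no WT peak. Bdkrb1, Myorg, Nav1, Prr14l and Syne2 also had 4 each, with 2, 1, 3, 4 and 9 WT peaks. Among the genes with another WT peak, 1126 of 1230 also had a KO peak shared with WT, and in the other 104 every KO peak was KO-only. A WT-only peak was listed as well in 397 of the 1230. Some members repeat a place: 54 of the 1860 shared a base with another KO-only peak, so these places are counted more than once.

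Genes of the 2 classes differed in length and level. Main coding transcripts had a median length of 4481 bases in genes with another WT peak, 2998 bases in genes with no WT peak and 3273 bases in genes with shared peaks. Levels are read counts scaled to library size (CPM), averaged over the 3 WT input libraries. They are divided here by the merged length in kilobases of all annotated exons of the gene. The median level was 5.72 CPM per kb in genes with another WT peak, 2.6 in genes with no WT peak and 8.81 in genes with shared peaks. The quartiles were 2.75 and 11.9 CPM per kb in genes with another WT peak, 0.66 and 11.2 in genes with no WT peak and 3.86 and 19.2 in genes with shared peaks.

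Within the transcript, the KO-only peaks of the 2 gene classes differed in how many lay near the stop codon. Peak centres could be placed on the main coding transcript for 1410 KO-only peaks. Of the 1134 in genes with another WT peak, 12.9% (146, interval 11 to 15) lay within 200 bases of the stop codon. Of the 276 in genes with no WT peak, 35.1% did (97, interval 29.5 to 41.1). Shared peaks were between the 2 classes, at 26.5% (3590 of 13566, interval 25.7 to 27.2). That window made up 10.1%, 15.4% and 12.6% of the bases of the same transcripts, so the KO-only centres in genes with another WT peak were slightly above an even spread and those in genes with no WT peak further above it. The intervals cover counting error only, peaks of a gene are not independent, and no test was run between the sets.

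The rule bars members from the bases under a WT peak but not from the rest of the window near the stop codon. Of the 977 genes with a placed KO-only peak and another WT peak, 413 (42.3%) had a WT peak centre within 200 bases of the stop codon. In the genes that had none there, 20.1% of KO-only centres (131 of 652, interval 17.1 to 23.4) lay within that distance. The share was thus higher in these genes than over all genes with another WT peak, and lower than in genes with no WT peak. The share of transcript bases in the window is not given for these genes. Whether the rule accounts for the difference was not tested.

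**Figure D2:**
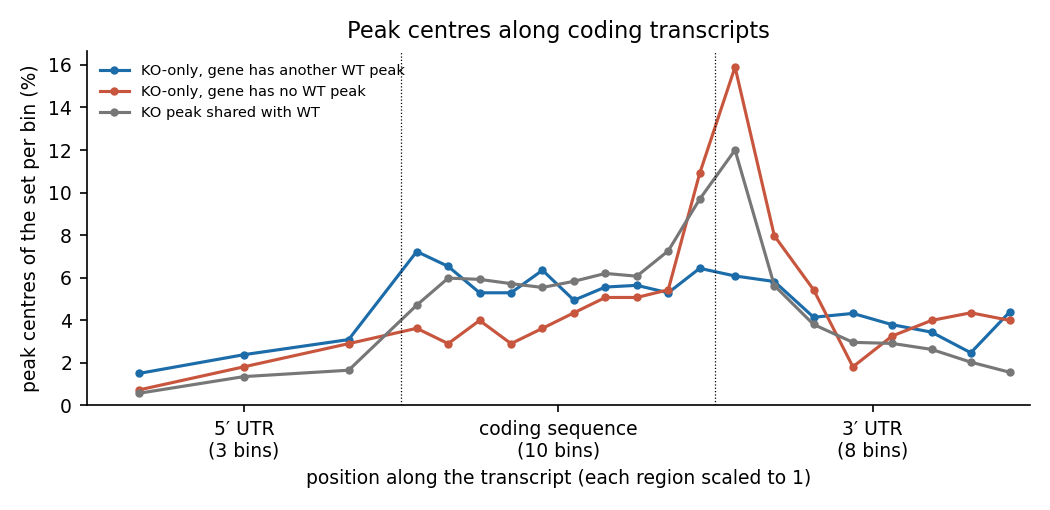
Position of peak centres along the main coding transcript, with the 5′ UTR, coding sequence and 3′ UTR each scaled to 1, against the percentage of centres of each set per bin. KO-only peaks in genes with no WT peak are most frequent just past the stop codon (15.9% in the first 3′ UTR bin), as shared peaks are (12%), while KO-only peaks in genes with another WT peak stay near 6.08% there.

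Centres of KO-only peaks were more frequent at the 5′ end than centres of shared peaks. The 5′ UTR held 6.67% of KO-only centres (94 of 1410, interval 5.42 to 8.1), 3.57% of shared centres (interval 3.26 to 3.89) and 6.49% of WT-only centres. Within 100 bases of the transcript start the shares were 3.05% (43 of 1410, interval 2.22 to 4.09), 0.929% and 2.24%. The coding sequence held 56.5% and the 3′ UTR 36.9% of KO-only centres, against 62.9% and 33.5% of shared centres. The shares at the 5′ end were thus alike in the peaks that either list had alone, and their difference from shared peaks was not tested. Width was not held alike here, with medians of 120 bases in KO-only and 270 bases in shared peaks. A wide peak that begins at the transcript start has its centre further in, so centres of these sets cannot be compared directly there. The m6A antibody is known to bind also m6Am, a modified adenosine next to the cap, and the 2 marks cannot be told apart in these lists.

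KO-only peaks also lay off the main transcript more often. Their centres fell within an intron of the main coding transcript in 12.7% of cases (237 of 1860, interval 11.3 to 14.3), against 5.68% of shared peaks (interval 5.33 to 6.06) and 9.38% of WT-only peaks. A transcript annotated as retained intron was the only model there for 6.72% of KO-only peaks, 3.06% of shared peaks and 5.55% of WT-only peaks. Off the main transcript lay the peak in Polr1d, which encodes a subunit of RNA polymerases I and III (chromosome 5, 147101191 to 147104237, plus strand). Its deposited score was 0. Peaks in Phb2, which encodes a prohibitin, and Samhd1, which encodes a dNTP hydrolase, were placed off it too, with scores of 1.6e-36 and 1.6e-35.

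Noncoding genes carried 7.63% of KO-only peaks (142 of 1860), 4.36% of shared peaks and 11.2% of WT-only peaks (422 of 3784), so the KO-only share lay between the other 2. In genes with no WT peak the share was 22.3% (94 of 421). The noncoding members included 33 peaks in processed pseudogenes, 29 in antisense genes and 19 in lincRNAs. Reads from pseudogenes and their parent genes may have been shared out by the authors' alignment, so these members are uncertain.

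KO-only peaks were placed against the nearest WT peak of the same gene. Main transcripts of these genes had a median length of 4481 bases, with a median of 3 KO peaks per gene. Distances under random placement were not computed, so closeness beyond it cannot be judged. For 1120 peaks the distance along the main transcript could be measured, and its median was 393 bases (quartiles 179 and 875). Of these peaks 27% (302, interval 24.4 to 29.7) lay within 200 bases of a WT peak and 55.9% within 500 bases. They fell on either side alike, with 51.7% (579, interval 48.7 to 54.7) on the 3′ side. RNA fragments were about 100 bases long per the labels' protocols.

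**Figure D3:**
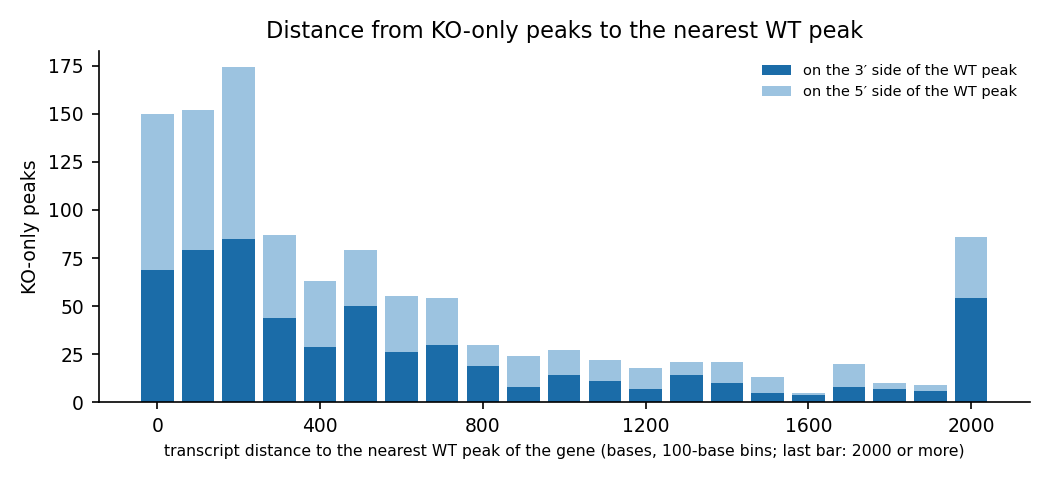
Distance along the main transcript from each of 1120 KO-only peaks to the nearest WT peak of its gene, in bins of 100 bases, against the number of KO-only peaks. The 2 shades give peaks on the 3′ side (579) and on the 5′ side. Counts are highest in the first 3 bins and the median is 393 bases.

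The rule has a sharp edge. Just inside it, the peak in the mitochondrial tRNA gene mt-Tl1 touched a WT peak without sharing a base. Peaks in Haspin, Ccdc173 and Actn1 lay 28 bases from a WT peak, with scores of 4e-10, 1.5e-07 and 7.9e-07. Just outside, peaks in Spaca6, Ralgapa1, Polk and Epb41l2 shared a single base with the WT list, with scores of 4e-17, 7.9e-15, 1e-13 and 5e-13. Those just outside had the lower scores, but they tied in shared bases, and peaks of lowest score may have been named first. Scores on the sides of the edge therefore cannot be compared from these peaks.

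DRACH was as dense in KO-only peaks as in shared peaks. On the transcript strand it occurred 23.6 times per kilobase in KO-only peaks, 24.4 in shared peaks and 24.2 in WT-only peaks. The same motif read backwards, a control for single-base composition alone, occurred 25, 27.3 and 26.5 times per kilobase. DRACH was not denser than this control in any of the 3 sets, but the control does not match neighbouring bases or codon use. GGACT, the most common form of the site, occurred 1.69, 1.55 and 1.49 times per kilobase. A DRACH match was present in 90% of KO-only peaks (1650 of 1834 with a sequence) and 97.9% of shared peaks. Among peaks of at most 120 bases these shares were 84.6% and 86.2%, and among peaks of 121 to 240 bases 96% and 98.1%, so most of the gap went with width. G or C made up 49% of bases in KO-only peaks and 48.7% in shared peaks.

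YTHDF2 RIP peaks came from other libraries and were not used by the rule. Of the 1860 KO-only peaks, 692 (37.2%, interval 35 to 39.4) shared a base with a RIP peak on the same strand. For shared peaks the share was 50.9% (interval 50.1 to 51.7) and for WT-only peaks 37%. These 692 peaks had no m6A peak listed at the same bases in WT cells and a YTHDF2 peak listed there in cells of that label. Among peaks of like width the gap to shared peaks was smaller: 33.5% against 37.8% for peaks of at most 120 bases, 40.3% against 42.2% for 121 to 240 bases, and 56.5% against 58.3% for wider peaks.

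The 2 classes of genes stood far apart in this readout. In genes with another WT peak, 44.7% of KO-only peaks (643 of 1439, interval 42.1 to 47.3) shared a base with a RIP peak. In genes with no WT peak, 11.6% did (49 of 421, interval 8.74 to 15.1). Whole genes showed the same order, since 76.3% of the 1230 genes and 36.6% of the 380 genes had a RIP peak anywhere, against 61.5% of all genes with a KO peak. Between levels of 2 and 10 CPM per kb the shares of peaks were 53.4% and 15.8%, and below 2 CPM per kb 43.2% and 10.9%. The order was the same at 10 CPM per kb and above (29% and 8.77%), and the difference was not tested. Set beside shared peaks of like width, KO-only peaks of genes with another WT peak were under RIP peaks slightly more often, at 41.2% against 37.8% up to 120 bases and 47.3% against 42.2% from 121 to 240 bases. Set beside shared peaks of like level they were under RIP peaks less often, at 43.2% against 49.1% below 2 CPM per kb, 53.4% against 62.6% from 2 to 10 and 29% against 39.4% above, so the direction depended on what was held alike.

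**Figure D4:**
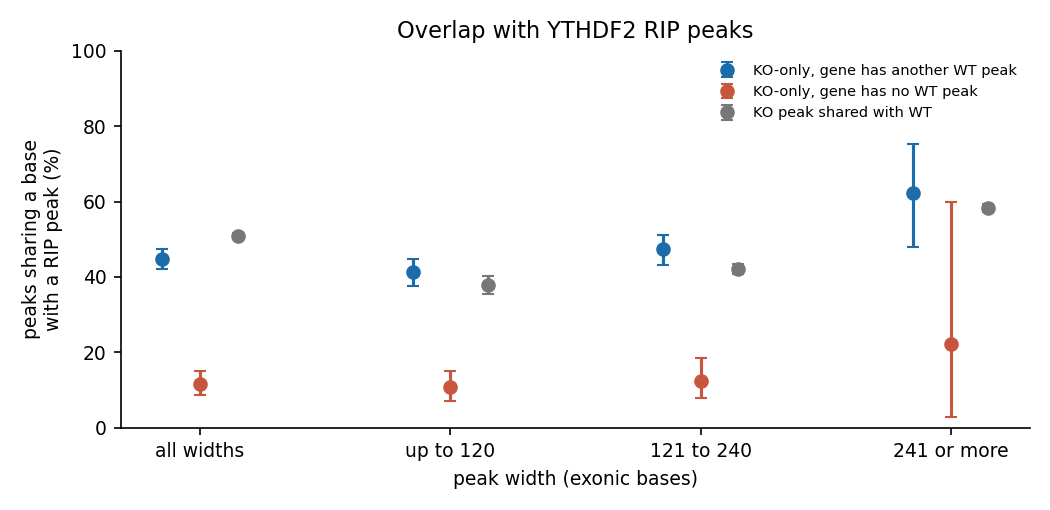
Percentage of m6A peaks sharing at least 1 base with a YTHDF2 RIP peak, for all widths and in 3 width classes. Points are KO-only peaks in genes with another WT peak, KO-only peaks in genes with no WT peak and shared peaks, and bars are 95% exact binomial intervals (counting error only). KO-only peaks in genes with no WT peak stand lowest (11.6% overall), and the other 2 sets lie close together within a width class.

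Of the 6 KO-only peaks of lowest score under a RIP peak in genes with a given name, 4 lay in genes whose input level rose in the KO-labelled libraries. The 6 were picked by their score in the KO list, which may favour genes with more RNA there, so this count is a description. Input counts were compared with edgeR's quasi-likelihood F test and Benjamini-Hochberg adjustment over 18969 genes, and a call is an adjusted p below 0.05, by which 2.99% of all genes were higher. Zfpm1 was measured at 15.1, 13.9 and 12.5 CPM in the WT inputs and at 23.9, 40 and 44.8 CPM in the KO-labelled inputs (log2 fold change 1.39, SE 0.23, edgeR adjusted p = 0.0333). Rhou stood at 17.9, 21.2 and 20.8 CPM in WT and at 27.8, 53.6 and 52.5 CPM in KO (1.16 on the log2 scale, SE 0.24, edgeR adjusted p = 0.0461). In both genes every KO library was above every WT library, and KO replicate 1 was the lowest of the 3. Every KO library was above every WT library in 3352 of the 18969 genes tested.

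Raph1 and Znrf1, which encodes a ubiquitin ligase, rose as well, by log2 fold changes of 0.98 and 1.03 (edgeR adjusted p = 0.0431 and 0.0405). The other 2 peaks lay in Polr1d (0.30, edgeR adjusted p = 0.276) and in Mcm10, which encodes a replication initiation factor (0.30, edgeR adjusted p = 0.209, 1 base shared with a RIP peak). Rhou and Zfpm1 had their KO-only peak 179 and 119 bases from a WT peak. Raph1 and Znrf1 had it 1742 and 1099 transcript bases away.

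Before the counts over all members, 2 facts of the libraries matter. Total counts ran from 45441281 to 50959555. KO replicate 1 stood apart from the other KO inputs: on the first principal component (51.4% of variance) it scored -10.4, the other 2 scored 64.1 and 63.2, and the 3 WT inputs lay between -39.2 and -38.6. Ythdf2 itself did not check the label, because whole-gene reads include exons outside an edited site: it stood at 55.6, 68.6 and 59.7 CPM in WT and 67.9, 59.8 and 61.5 CPM in KO (edgeR adjusted p = 0.809). It had no KO-only peak, and neither had Cx3cl1, the fractalkine gene. The colon label was not backed by markers: Epcam, Krt18, Car1 and Cldn7 were at 0 in all 6 inputs, and the 15 colon epithelial markers summed to between 1.15 and 1.76 CPM. The 12 fibroblast markers summed to between 2827 and 3378 CPM in the WT inputs, 3263 in KO replicate 1 and 1781 and 1797 in the other 2, and none of them had a KO-only peak. Most of each sum was Col3a1 (1796 to 2314 CPM in WT, 2348, 1245 and 1276 in KO) and S100a4 (699 to 707 in WT, 619, 276 and 262 in KO). Pdgfra went the other way in KO replicates 2 and 3 (141 to 145 CPM in WT, 138, 184 and 183 in KO). Thy1, Acta2 and Postn reached at most 0.339 CPM, so the list did not act as a unit. The part of these markers in the results was not tested, and in bulk RNA fewer cells of a type and less RNA per cell cannot be told apart.

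Genes with KO-only peaks were, on balance, higher in the KO-labelled inputs. Peaks are called on reads, so the rule may favour genes with more RNA in KO cells, and the counts are a description. Of the 1230 genes with another WT peak 1225 were tested: 91 were higher (7.43%) and 7 lower. Over all genes tested, 568 (2.99%) were higher and 293 (1.54%) lower. Of the 380 genes with no WT peak 366 were tested, with 20 higher (5.46%) and 1 lower. The median log2 fold change was 0.168 in the first class (73.8% of genes above 0), 0.126 in the second (65.3%) and -0.006 over all genes tested. Among the 8171 tested genes that had a peak in both lists it was 0.076, with 403 higher (4.93%). Genes with a WT-only peak and no KO peak went the other way, with a median of -0.198, 17 higher and 43 lower of 1066.

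Library by library, medians over genes of the log2 level against the WT mean were 0.094, 0.184 and 0.203 in KO replicates 1 to 3 for genes with another WT peak. They were 0.052, 0.142 and 0.137 for genes with no WT peak. WT libraries stayed between -0.026 and 0.029, so all 3 KO libraries lay above all 3 WT libraries in both classes. Peak calls depend on reads, and the sources used here do not say whether inputs entered them. Input level cannot be taken as independent of the rule, so these shares and medians are a description.

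Calls hung on single libraries. Without KO replicate 1, 3782 (19.3%) of 19551 genes were higher and 3144 (16.1%) lower. Of the genes with another WT peak, 502 of 1226 were then higher and 79 lower (40.9% and 6.44%), and of those with no WT peak 115 of 369 were higher and 30 lower (31.2% and 8.13%). With any other input library left out, at most 11 and 5 genes of the 2 classes were higher and 0 were lower. Over all genes, 53 of 19539 were then higher without WT replicate 1 and 0 to 3 in the other 4 fits. Nothing in the labels ties replicates to separate cultures, so the p-values may rest on technical spread alone.

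Input levels are given by RIP class beside the 2.99% of all genes tested that were higher. The 595 tested genes with a KO-only peak under a RIP peak had a median log2 fold change of 0.201, and 56 (9.41%) were higher. Genes with a RIP peak elsewhere had a median of 0.139 with 6.5% higher, and genes with no RIP peak 0.117 with 4.62% higher. Among the other genes with peaks in both lists the medians were 0.08 with a RIP peak (4.97% higher) and 0.033 without one (3.76% higher). The medians of all 3 KO-only sets were above these 2. The rule may favour genes with more RNA in KO cells, and no test was run between the sets.

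**Figure D5:**
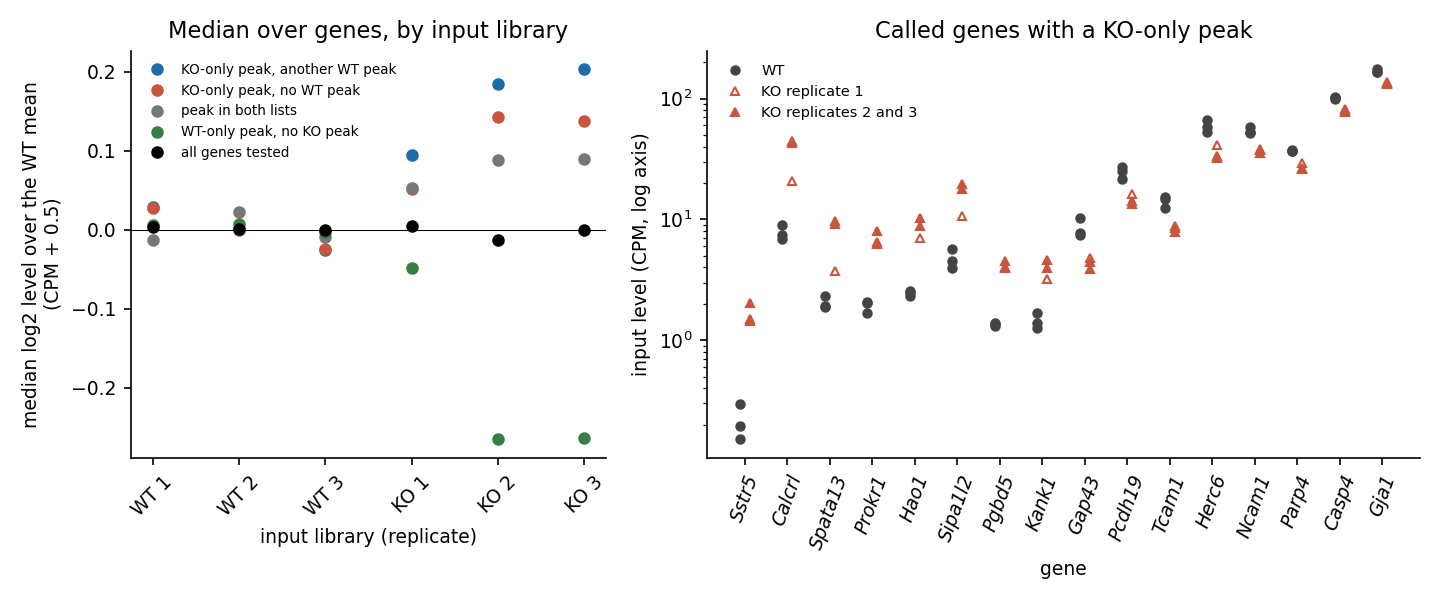
Left, median over genes of log2(CPM + 0.5) minus the mean of the 3 WT inputs, for each of the 6 input libraries and 5 gene sets. Right, input level in CPM on a log axis for the called genes of largest rise and fall, with WT as circles and KO as triangles (open for replicate 1). Both KO-only sets lie above 0 in all 3 KO libraries (0.052 to 0.203), and the set of genes with a WT-only peak and no KO peak lies below 0 there.

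The largest rises among called genes were in genes of low WT level. Sstr5, which encodes a somatostatin receptor, was at 0.296, 0.152 and 0.194 CPM in WT and at 1.5, 2.05 and 1.45 CPM in KO. Its log2 fold change was 2.94 (SE 0.33, edgeR adjusted p = 0.0176), and its KO-only peak of 209 bases lay in the 3′ UTR of a gene with no WT peak. Prokr1 rose from 2.07, 2.02 and 1.69 CPM to 6.27, 6.44 and 8.07 CPM (1.84, SE 0.18, edgeR adjusted p = 0.013). One of its 4 KO-only peaks had its centre 22 bases from the stop codon, in the coding sequence, and the other 3 lay in the 3′ UTR. Hao1, which encodes a peroxisomal glycolate oxidase, rose from 2.31, 2.54 and 2.45 CPM to 7.07, 8.9 and 10.2 CPM (1.84, edgeR adjusted p = 0.013), and its peak lay 157 bases past the stop codon. No library overlapped between the groups in these 3 genes, which were picked among called genes. All KO inputs lay above all WT inputs in 3352 of the 18969 genes tested. Spata13, a guanine nucleotide exchange factor gene, and Kank1, an adhesion-associated gene, had no WT peak either and rose by 1.89 and 1.44.

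Calcrl, which encodes a receptor for adrenomedullin and CGRP peptides, had a WT peak 2424 bases from its KO-only peak. It stood at 8.95, 7.47 and 6.85 CPM in WT and at 20.8, 44.7 and 42.9 CPM in KO (2.22, SE 0.29, edgeR adjusted p = 0.0227). Sipa1l2, with a WT peak 59 bases away, rose by 1.77, and Pgbd5, with one 239 bases away, by 1.63. With single libraries left out, these 8 genes kept an adjusted p below 0.05 in 1 or 2 of 6 fits, and in 1 of them without KO replicate 1.

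In 8 genes the level fell while a KO-only peak was listed. Gap43, a growth cone gene, stood at 10.3, 7.73 and 7.39 CPM in WT and at 4.78, 4.45 and 3.87 CPM in KO (-0.96, SE 0.18, edgeR adjusted p = 0.0385). Its peak of 60 coding bases lay 29 bases from a WT peak. Herc6, an interferon-induced ubiquitin ligase gene, went from 65.9, 53 and 57.8 CPM to 41.3, 32 and 33.8 CPM (-0.72, edgeR adjusted p = 0.0344). Parp4, which encodes the vault poly-ADP-ribose polymerase, was the only called gene that fell among those with no WT peak: 37.1, 37.8 and 37 CPM in WT and 29.2, 25.9 and 26.6 CPM in KO (-0.45, edgeR adjusted p = 0.0378). Pcdh19, Tcam1, Ncam1, Casp4 and Gja1 fell by 0.76, 0.75, 0.53, 0.36 and 0.33 on the log2 scale. In all 8, which were picked among called genes, the WT and KO values did not overlap. All KO inputs lay below all WT inputs in 3066 of the 18969 genes tested. Each of the 8 passed the test in 1 of the 6 fits with a library left out, the fit without KO replicate 1.

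Among the 6 peaks of lowest score in each class, taken from protein-coding genes with a given name, called genes were Hmgb1 and Zfpm1 with another WT peak and Tmem176b with none. Over all KO-only peaks in genes with no WT peak the lowest score was 7.9e-88, against 7.9e-25 for Atp5o. Hmgb1, which has many processed pseudogenes, stood at 175, 170 and 169 CPM in WT and at 208, 236 and 238 CPM in KO (0.41, SE 0.08, edgeR adjusted p = 0.0377). Its KO-only peak (score 2.5e-68) had its centre 120 transcript bases from a WT peak. The peak was listed as 1 block of 180 bases and ran past both ends of exon 3, which has 146 bases. No annotated transcript of the gene held the whole block. Tmem176b, which encodes a membrane protein and overlaps Tmem176a on the other strand, stood at 79.7, 66.1 and 65.6 CPM in WT and 97, 135 and 134 CPM in KO (0.79, edgeR adjusted p = 0.0367). Mfap1b was at 80.5, 87.1 and 79.8 CPM in WT and at 75.8, 49.3 and 48.5 CPM in KO, which did not pass the test (-0.51, edgeR adjusted p = 0.106). Atp5o was at 298, 342 and 348 CPM in WT and at 352, 341 and 338 CPM in KO, so its groups overlapped. Peaks of 61, 60 and 60 bases in Atp5o, Tmem176b and Lgals9 ended exactly at the annotated 3′ end of the gene. Over all KO-only peaks in genes with no WT peak this held for 3.8% (16 of 421, interval 2.19 to 6.1), beside 3.69% of shared peaks.

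Nr1h4 and Caprin2, an RNA-binding protein gene, had log2 fold changes of 0.63 and 0.70 that did not pass the test (edgeR adjusted p = 0.249 and 0.0772). Ddit3 ranged from 140 to 267 CPM in WT and from 211 to 256 CPM in KO, so its groups overlapped. Its KO-only peak was centred in the 5′ UTR and its only WT peak lay 239 transcript bases away. The sources used here do not state the strand setting of the authors' counting, so genes that overlap a gene on the other strand (Hmgb1, Ddit3, Atp5o and Phb2 among these) may include reads of the partner.

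Counts over pathway lists are given beside the share of all genes with a KO peak that had a KO-only peak, 18.5% (1610 of 8686). That share takes no account of transcript length or number of peaks. Genes with a KO-only peak and another WT peak had a median of 3 KO peaks, against 2 over all genes with a KO peak. Their median transcript length was 4481 bases, against 3273 bases in genes with shared peaks. Chromatin regulators had a KO-only peak in 15 of 50, among them Brd1, a bromodomain gene, and Dnmt3a, a DNA methyltransferase gene. In the input test 1 of the 15 was higher, and 1 of the 50 tested in the whole list. Over all genes tested 2.99% were higher. Checkpoint and immunoregulatory ligands had 5 of 12 (Cd274, which encodes PD-L1, Cd276, Hmgb1, Lgals9 and Nectin2). Of these Hmgb1 was higher, and in the whole list 4 of 18 tested genes were higher and 2 lower. NF-kB pathway genes had 5 of 21 (Birc3, Ikbkb, Nfkb2, Rela and Tnfaip3), and none of the 5 was called, nor any of the 27 tested in the list. The integrated stress and unfolded protein response list had 5 of 26, of which Hyou1, an ER chaperone gene, was higher (0.62, edgeR adjusted p = 0.0302). In that whole list 9 of 30 tested genes were higher.

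In the remaining lists the share of genes was below 18.5%. mRNA decay factors had 6 of 38 (among them Rc3h1, Smg1, Tob2, Upf2 and Xrn1), with 0 called, and 1 of 45 tested genes of the list was higher. Cell cycle genes had 4 of 36 (Cdk2, Cenpe, E2f8 and Wee1), of which E2f8 was higher (0.69, edgeR adjusted p = 0.0293). In the whole cell cycle list 9 of 45 tested genes were higher. Interferon-stimulated genes had 2 of 36 (Herc6 and Samhd1) and class I antigen presentation genes 1 of 15 (H2-T22). The m6A factors had 1 of 18, Zc3h13, a subunit of the methyltransferase complex. Extracellular matrix genes had 2 of 22 (Col4a1 and Mmp14), immediate early genes 2 of 20 (Dusp5 and Klf10), p53 targets 2 of 15 (Bax and Rrm2b) and chemokines 1 of 8 (Ccl28). These counts were not tested.

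List genes that had a KO-only peak and no WT peak at all were Ccl28, Cdk2, Dusp5, Lgals9, Nfkb2, Rc3h1 and Rrm2b. Nfkb2, which encodes the p100 and p52 NF-kB subunit, had 2 such peaks, of which the stronger (score 7.9e-12, 181 bases) had its centre 45 bases past the stop codon. Its level was 109, 101 and 102 CPM in WT and 121, 140 and 145 CPM in KO, with an edgeR adjusted p of 0.0524. The groups did not overlap, as in 3352 of the 18969 genes tested that had all KO inputs above all WT inputs. Rc3h1, which encodes the RNA-binding ubiquitin ligase roquin, had both of its peaks in the 5′ UTR and 11 RIP peaks, none of which shared a base with them. Its level was 35, 38 and 34.4 CPM in WT and 33.5, 36.4 and 38 CPM in KO, so the groups overlapped. Lgals9, which encodes galectin-9, had a peak of 60 bases in the last exon, wholly under a RIP peak. It stood at 119, 116 and 119 CPM in WT and at 133, 131 and 143 CPM in KO (0.21, edgeR adjusted p = 0.0971).

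Ccl28, Cdk2, Dusp5 and Rrm2b did not pass the test either (log2 fold changes 0.33, 0.35, 1.11 and 0.11, edgeR adjusted p = 0.499, 0.0552, 0.114 and 0.673). Dusp5, a phosphatase gene of the MAPK pathway, was at 1.22 CPM in KO replicate 1, within the WT range of 1.01 to 1.4, and at 3.03 and 3.47 CPM in the other 2. Tnfaip3, the gene of the NF-kB inhibitor A20, had a similar split: 5.9, 5.3 and 5.59 CPM in WT and 6.86, 20.6 and 22.9 CPM in KO (1.58, edgeR adjusted p = 0.0642), with its KO-only peak 59 bases from a WT peak.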

How the data were processed

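The authors deposited raw read counts of the 6 input libraries and a peak list for each of the 3 kinds of pulldown, WT m6A, KO m6A and RIP. Their deposited peak score was read as a p-value from its values alone. The submitters' processing notes name HISAT2, HOMER, ChIPseeker and mm10. Not given in these sources are the peak caller, its thresholds, how libraries were combined and the strand of counting, so peaks have no replicate error. The count table held 0 columns of other samples. At these depths 3 counts, the level that a count of 0 allows, equal 0.0582 to 0.0652 CPM.

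Peaks were compared by exonic blocks on the same strand (at least 1 base), and bedtools 2.31.1 gave the same 1860 members. Gene IDs were matched without version to GENCODE M21 (10779 of 10788). The main transcript of a gene was its coding transcript of longest coding sequence, and distances to the stop codon run from the last coding base. Shares have 95% Clopper-Pearson intervals. Counts were tested with edgeR 4.0.16 in R 4.3.3 (TMM, filterByExpr), checked on simulated data. SE is the size of the log2 fold change over the square root of F, and CPM uses TMM-scaled library sizes.

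Alternatives were DESeq2 1.42.0, RLE factors, another count filter, a replicate block, left-out libraries, other overlap rules and score limits. Named peaks were the 6 of lowest score per class and under RIP in protein-coding genes, and the 4 nearest to either side of the rule. Gene models without a given name (Gm with digits, names ending in Rik, or AC, AL or BC with digits) were left out. Named genes were the 8 largest rises and falls among called protein-coding genes, and list genes with no WT peak or of lowest score; other list members complete a count. Genes with 4 or more KO-only peaks, and the remark on gene ends, were added after their values were seen. Members, lists and rules were chosen with earlier results of these data known. Sequences of peaks on chromosome 18 are not shown.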

Additional observations from a re-analysis of the deposited data

How the results depend on the processing

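The number of KO-only peaks stayed within 1.5 times of 1860 when at least 50% cover by WT peaks, overlap of genomic spans, either strand, a distance of over 200 bases or a score of at most 0.0001 was required (1608 to 2406), and fell to 493 with a score of at most 1e-10, a limit chosen after seeing the data. The share under RIP peaks (37.2%) was 32.2% when RIP peaks had to cover 50% of the peak, 40.7% with the 50% rule for WT cover and 42.8% at a score of at most 1e-10. Shares in the 3′ UTR (35.6% to 37.8%) and near the stop codon (17.1% to 18.1%) moved by less than their intervals under the alternatives run. DRACH occurred 23.5 to 24 times per kilobase under the other peak rules, and GGACT alone 1.69 times. Genes higher and lower in the KO inputs numbered 568 and 293 with edgeR, 2134 and 1134 with DESeq2, and 70 and 41 when all genes with at least 1 count were tested. In genes with another WT peak (91 and 7) these were 324 and 28 with DESeq2 and 12 and 0 with the wider filter; in genes with no WT peak (20 and 1) they were 75 and 9, and 5 and 0. Left-out libraries moved the counts over all genes from 0 to 3782 higher and from 0 to 3144 lower, in genes with another WT peak from 0 to 502 and from 0 to 79, and in genes with no WT peak from 0 to 115 and from 0 to 30; the highest value was always without KO replicate 1. The cause was not tested. The medians stayed above 0 in every alternative run, from 0.143 to 0.2 with another WT peak and from 0.098 to 0.148 with none. 

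The labels do not say whether equal replicate numbers mark pairs. Deviations of same-numbered WT and KO inputs correlated weakly, at 0.049, 0.115 and 0.05, and every sample correlated best with its own number. With the replicate block 45 genes were higher and 26 lower, 7 and 1 in genes with another WT peak and 1 and 0 in genes with none.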
